A study of Mus musculus with 11 samples.

Results

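The 3 sequencing libraries of thymic epithelium from NOD mice with an unaltered Aire gene, titled NOD.AireWT/WT, are described here as a baseline. They were taken by title and make up 3 of the 11 libraries of the series; the other 8 carry the Aire variant R249C on 1 or both copies, and no genotype was compared here. NOD is an inbred strain prone to autoimmune diabetes, and the mice were 4 to 8 weeks old. Thymi were digested to single cells, CD45-expressing cells were removed with magnetic beads, cells positive for EpCAM were sorted, and libraries were built from low-input RNA. The libraries are called replicates 1, 2 and 3 as in their titles, which name them biological replicates; the number of mice behind each library is not stated in the labels. Replicate 1 belongs to the labelled batch A and its column name carries the word trimmed, while replicates 2 and 3 belong to batch B and carry no such word, so the batch and the single library of batch A cannot be told apart.

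The thymic epithelium is the scaffold on which T cells mature. Cortical epithelial cells drive the commitment and positive selection of thymocytes. Medullary epithelial cells express genes that otherwise belong to single peripheral tissues, partly through the regulators Aire and Fezf2, and show the peptides to maturing T cells so that self-reactive ones are deleted or diverted. Some medullary cells go further and take up whole programmes of other cell types, such as tuft, muscle or ciliated cells, and are called mimetic cells.

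The libraries held 105630818, 123454878 and 182319976 counts in replicates 1, 2 and 3, and every series of 3 values below follows that order. Levels are CPM, counts divided by the library total and scaled to 1000000, and a mean is followed by its SD over the 3 libraries (n = 3). Levels of different genes are set against each other only as CPM per kilobase of exon. The length is that of all annotated exons of a gene together, which can exceed any single transcript and so lower the level. A gene said to lead a list had the most counts of it. A gene is called present in a library with at least 1 count, and a count of 0 allows up to 3 counts, or 0.0284, 0.0243 and 0.0165 CPM; reads carry no molecular identifiers, so this limit covers counting error only. Of the 56691 genes of the table, 21002 (37%) were present in all 3 libraries, 12587 (22.2%) in 1 or 2 and 23102 (40.8%) in none. Per library the table held counts for 25129, 24989 and 30826 genes, and after thinning to the smallest total 25129, 24818 and 30173, so replicate 3 held more genes than the others at equal depth too. Across all genes, Pearson's r of log2(CPM + 1) between pairs of libraries was 0.942, 0.951 and 0.953, as a description over genes, which are not independent replicates.

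The labelled cell type was checked on 4 genes, and all 4 were counted in every library. Epcam (ENSMUSG00000045394), the adhesion molecule used for the sort, had 367, 380.4 and 449.6 CPM. Aire (ENSMUSG00000000731), the regulator of tissue-restricted genes in mature medullary cells, had 312, 391 and 768 CPM. Psmb11, the proteasome subunit found in cortical epithelium, had 49.9, 63.4 and 51.6 CPM, and Ccl21a, the chemokine of an immature medullary subset, had 384, 1107 and 1147 CPM. Epcam and Psmb11 varied little between libraries, at 399 ± 44.3 and 55.0 ± 7.36 CPM, whereas Aire was highest in replicate 3 (490.5 ± 244 CPM) and Ccl21a lowest in replicate 1 (879.6 ± 429 CPM). Per kilobase the means were 1011 CPM for Ccl21a, 181.8 for Epcam, 128 for Aire and 11.5 for Psmb11. Cells of a type and RNA per cell cannot be told apart in bulk samples, so none of these levels is a share of cells.

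The promoters of Epcam, of the milk casein gene Csn2 and of the kidney gene Umod are shown because these genes stand for the range of presence described below: Epcam at close levels in every library, Csn2 in all 3 at unequal levels, and Umod in 1 library only. The 250 bases before each start are from RefSeq on build GRCm38.p6, at chr17:87635729-87635978 on the plus strand, chr5:87699426-87699675 on the minus strand and chr7:119479263-119479512 on the minus strand, with each CG and each TATAAA (either strand) in capitals. The counts themselves were made on build mm39.
Epcam: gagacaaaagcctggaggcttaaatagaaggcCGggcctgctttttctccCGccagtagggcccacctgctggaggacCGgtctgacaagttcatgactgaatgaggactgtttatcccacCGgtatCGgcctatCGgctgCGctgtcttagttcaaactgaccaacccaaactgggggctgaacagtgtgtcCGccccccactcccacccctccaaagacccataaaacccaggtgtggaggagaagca
Csn2: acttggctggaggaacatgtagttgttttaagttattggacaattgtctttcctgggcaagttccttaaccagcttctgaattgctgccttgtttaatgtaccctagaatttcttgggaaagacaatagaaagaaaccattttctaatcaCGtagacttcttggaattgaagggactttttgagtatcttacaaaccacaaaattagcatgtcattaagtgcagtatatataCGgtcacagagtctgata
Umod: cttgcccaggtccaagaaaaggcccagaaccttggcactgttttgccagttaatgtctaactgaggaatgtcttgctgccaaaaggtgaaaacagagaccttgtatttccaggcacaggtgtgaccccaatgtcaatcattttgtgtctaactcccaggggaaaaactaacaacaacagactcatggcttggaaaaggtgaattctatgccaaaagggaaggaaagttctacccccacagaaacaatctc
In the window of 250 bases before to 50 after the start, Epcam held 11 CG pairs, Csn2 2 and Umod 0, against a median of 7 over all 32851 promoters of the table. None of these 3 windows holds TATAAA, which 13.6% of all promoters do. Those of Aire and Reg3g, also present in all 3 libraries, hold it, with 16 and 1 CG pairs. The genes shown were picked, so no relation of these letters to presence is read from them. A promoter was found for 164 of the 216 tissue-restricted genes described below, 75.9% and under the 80% set as the least, so no comparison of promoter letters between gene sets is given.

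Genes of antigen presentation, mitochondrially encoded genes and immediate early genes were among those with the most counts. The 30 genes with the highest mean CPM, leaving out numbered gene models, together took 13.4% of all counts, and the 100 genes with most counts took 20.4, 23.6 and 21.1%. Cd74, the invariant chain that guides MHC class II through the cell, ranked first in each library with 18322, 20846 and 25115 CPM (21428 ± 3434). With numbered gene models left out, it was also first per kilobase, at 12762 CPM. The class II beta chain H2-Ab1 had 6048, 6024 and 6486 CPM and the alpha chain H2-Aa 1269, 1745 and 1904 CPM, both in the first 30, and the class I heavy chain H2-D1 had 3471, 4973 and 5100.1 CPM. H2-Ab1 was among the steadiest of the leading genes, with an SD of 260.4 on a mean of 6186 CPM.

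Mitochondrially encoded genes filled 7 of the 30 places, led by mt-Cytb of the respiratory chain at 10825, 16953 and 10898 CPM and the ribosomal RNA mt-Rnr2 at 6096, 10159 and 3544 CPM. They took 3.03, 6.09 and 3.15% of all counts, so the share was highest in replicate 2. Counts on near-identical pseudogene copies, described below, are not in this share, which may be too low for that reason. The long noncoding RNA Malat1, which stays in the nucleus, had 7711, 14868 and 14219 CPM and was lowest in replicate 1. Ribosomal protein genes took 0.949, 1.66 and 1.54% of counts, with the lowest share in replicate 1.

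Genes switched on within minutes of a stimulus and heat shock genes were counted in every library, 13 of 13. Of all protein-coding genes 64.3% were. From this list 5 genes were among the 30 with the highest mean CPM. The list summed to 24527, 16587 and 18650.2 CPM. Junb had 7605, 3513 and 3849 CPM, Jun 4887, 3745 and 4187 CPM and Ier2 3523, 1803 and 1509 CPM, with Junb and Ier2 highest in replicate 1. Fos had 1419, 1618 and 1753 CPM and Egr1 1870.0, 1738 and 1924 CPM, with no library far from the others. The heat shock gene Hspa1a had 653, 668 and 1204 CPM, highest in replicate 3.

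**Figure D1:**
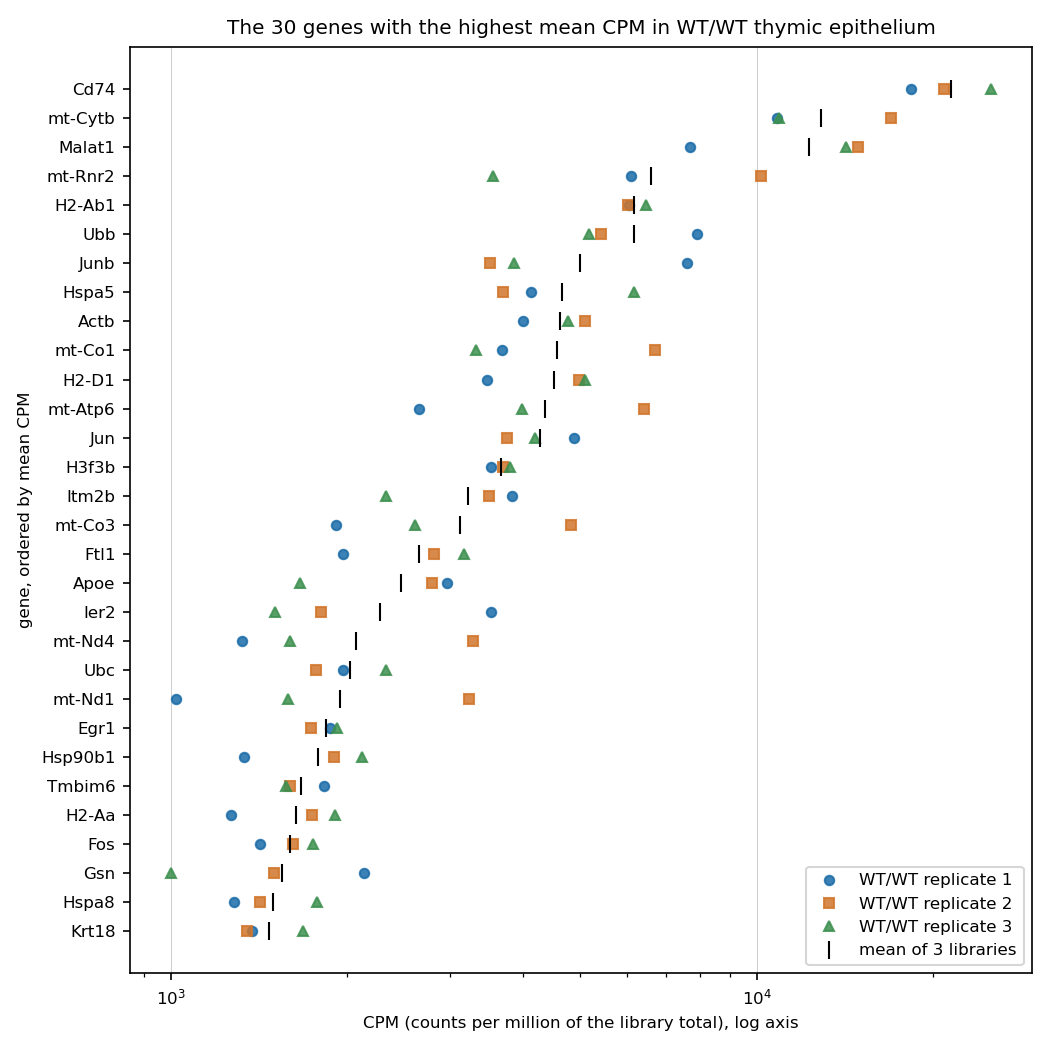
CPM of the 30 genes with the highest mean CPM in the 3 WT/WT libraries, on a log axis; points are libraries and the black tick is the mean. Cd74 lies highest in every library, mitochondrially encoded genes lie highest in replicate 2, and Junb, Ubb and Ier2 lie highest in replicate 1.

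Several of these abundant genes have near-identical copies in the genome, so their counts carry the uncertainty of how reads were split between them. The pairs were looked for after the leading genes were seen. Gm10925, a pseudogene on chromosome 1, is identical to mt-Atp6 over all 678 bases and had 2742, 6647 and 4113 CPM beside 2651, 6428 and 3970.4 CPM for mt-Atp6. The ratio of the copy to the gene was 1.03, 1.03 and 1.04 in the 3 libraries. The first 90 bases of both are shown, from the GENCODE M21 transcripts.
mt-Atp6: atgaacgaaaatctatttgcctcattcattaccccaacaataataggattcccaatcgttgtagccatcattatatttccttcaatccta
Gm10925: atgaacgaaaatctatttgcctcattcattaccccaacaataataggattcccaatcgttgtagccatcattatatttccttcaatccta
Gm28437 is likewise identical to mt-Co3 over 783 bases and had 1959, 4918 and 2664 CPM beside 1918, 4819 and 2610.2 CPM. The processed pseudogene Gm15459 differs from the chaperone gene Hspa8 at 5 of 1941 bases and had 657, 782 and 1001 CPM beside 1284, 1422 and 1777 CPM. Reads from such pairs cannot be assigned by sequence where no difference lies within the read, so the levels of both members are uncertain.

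The same holds for Ccl21a, a marker of this epithelium. Ccl21b, which in these gene models differs from it at 2 of 402 bases, had 122, 339.6 and 387 CPM, and 3 further copies with a Gm number had 113, 323 and 369 CPM, 121, 339 and 386 CPM and 95.4, 266 and 304 CPM. Both lie on chromosome 4. A stretch of 120 coding bases, from base 150 of the Ccl21a transcript and base 75 of that of Ccl21b, holds the only 2 differences between them and is shown with the differing bases in capitals.
Ccl21a: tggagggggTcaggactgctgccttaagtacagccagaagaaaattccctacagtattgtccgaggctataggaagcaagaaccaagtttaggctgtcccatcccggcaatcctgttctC
Ccl21b: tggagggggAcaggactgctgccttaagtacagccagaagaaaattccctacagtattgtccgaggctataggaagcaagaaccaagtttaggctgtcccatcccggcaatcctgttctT
The ratio of Ccl21b to Ccl21a was 0.316, 0.307 and 0.338, close in all 3 libraries although Ccl21a itself was far lower in replicate 1 than in the others.

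All 18 pan-epithelial genes were counted in every library, and the list summed to 4543, 4538 and 5658 CPM. A count in all 3 libraries was found for 64.3% of all protein-coding genes, the share to set beside each epithelial list. Krt18, a keratin of simple epithelia, led with 1377, 1352 and 1679 CPM, and its partner Krt8 had 428, 699 and 1105 CPM. The adherens junction protein Cdh1 was the steadiest, at 287, 294 and 296 CPM. Foxn1, the master regulator of thymic epithelium, had 58.1, 160.2 and 189 CPM and Pax9, a regulator of the pharyngeal pouch from which the thymus forms, 127, 133 and 122 CPM. Pax9 hardly moved between libraries, whereas Foxn1 was lowest in replicate 1. Trp63, a regulator of basal and progenitor epithelial cells, went the other way, with 993, 456 and 417 CPM and its highest level in replicate 1. Hoxa3, needed for early thymus formation, had the fewest counts of the list by mean CPM, at 19.5, 3.90 and 4.57 CPM. In replicate 1 Cldn3 had fewer, at 7.44 CPM.

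The 13 cortical genes were all counted in every library and their sum varied least of the 4 epithelial lists relative to its mean, at 2771, 3234 and 2946 CPM (2984 ± 234). The thymus-specific serine protease Prss16 had 471, 569 and 590.2 CPM and Tbata, a gene of thymic stroma, 418, 514 and 593 CPM. The chemokines Cxcl12 and Ccl25, which draw T cell progenitors, had 599.5, 424 and 422 CPM and 178, 468 and 405 CPM. Cxcl12 was highest and Ccl25 lowest in replicate 1. The Notch ligand Dll4, which commits progenitors to the T lineage, had 7.37, 12.9 and 38.5 CPM. Per kilobase Tbata led the list with a mean of 209.6 CPM, against 11.5 CPM for Psmb11 and 5.09 CPM for Dll4.

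All 12 genes of the immature medullary list were counted in every library. The list summed to 7496, 7391 and 6319.5 CPM, but its members did not move together between libraries. The cytokine receptor Lifr had 2191, 899.7 and 671 CPM and was highest in replicate 1, as Trp63 was. Krt17 had 463, 1171 and 1367 CPM and, like Ccl21a, was lowest in replicate 1. Krt5 and Krt14, the keratins of basal and medullary epithelium, had 799.7, 851 and 654 CPM and 577, 806 and 686 CPM, close in all 3 libraries. Of the 12 members, 4 were highest in replicate 1, 4 in replicate 2 and 4 in replicate 3 (5, 4 and 3 over TMM-scaled library sizes).

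The mature medullary list carried the largest sum of the 4, 27516, 31285 and 37170.5 CPM, of which Cd74 alone made up 67.0%. By mean CPM the class II genes H2-Ab1 (6186 CPM), H2-Aa and H2-Eb1 had the most counts after it, ahead of Aire (490.5 CPM). The rank of the sum rests on Cd74 and these class II genes, so it is not read as a predominance of mature medullary cells. Counts were found in every library for 16 of its 17 members, and 14 of the 17 were highest in replicate 3 and 14 lowest in replicate 1 (11 and 13 over TMM-scaled library sizes). Fezf2, the other known driver of tissue-restricted genes, had 125, 299.8 and 426 CPM. Cd40 and Tnfrsf11a, receptors through which thymocytes and lymphoid cells mature the medulla, had 49.9, 116 and 149.7 CPM and 54.5, 94.4 and 102 CPM. The costimulatory ligand Cd80 had 11.3, 44.1 and 24.2 CPM. Aire, Fezf2, Cd40 and Tnfrsf11a were each lowest in replicate 1 and highest in replicate 3. Cd86, a second costimulatory ligand that dendritic cells also carry, was the exception to presence, with 2.70, 0 and 9.80 CPM. Myeloid and B cells also express class II genes; the sum of the myeloid list, described below, was likewise lowest in replicate 1 (96.7, 307 and 389.7 CPM), and its part in these levels was not tested.

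**Figure D2:**
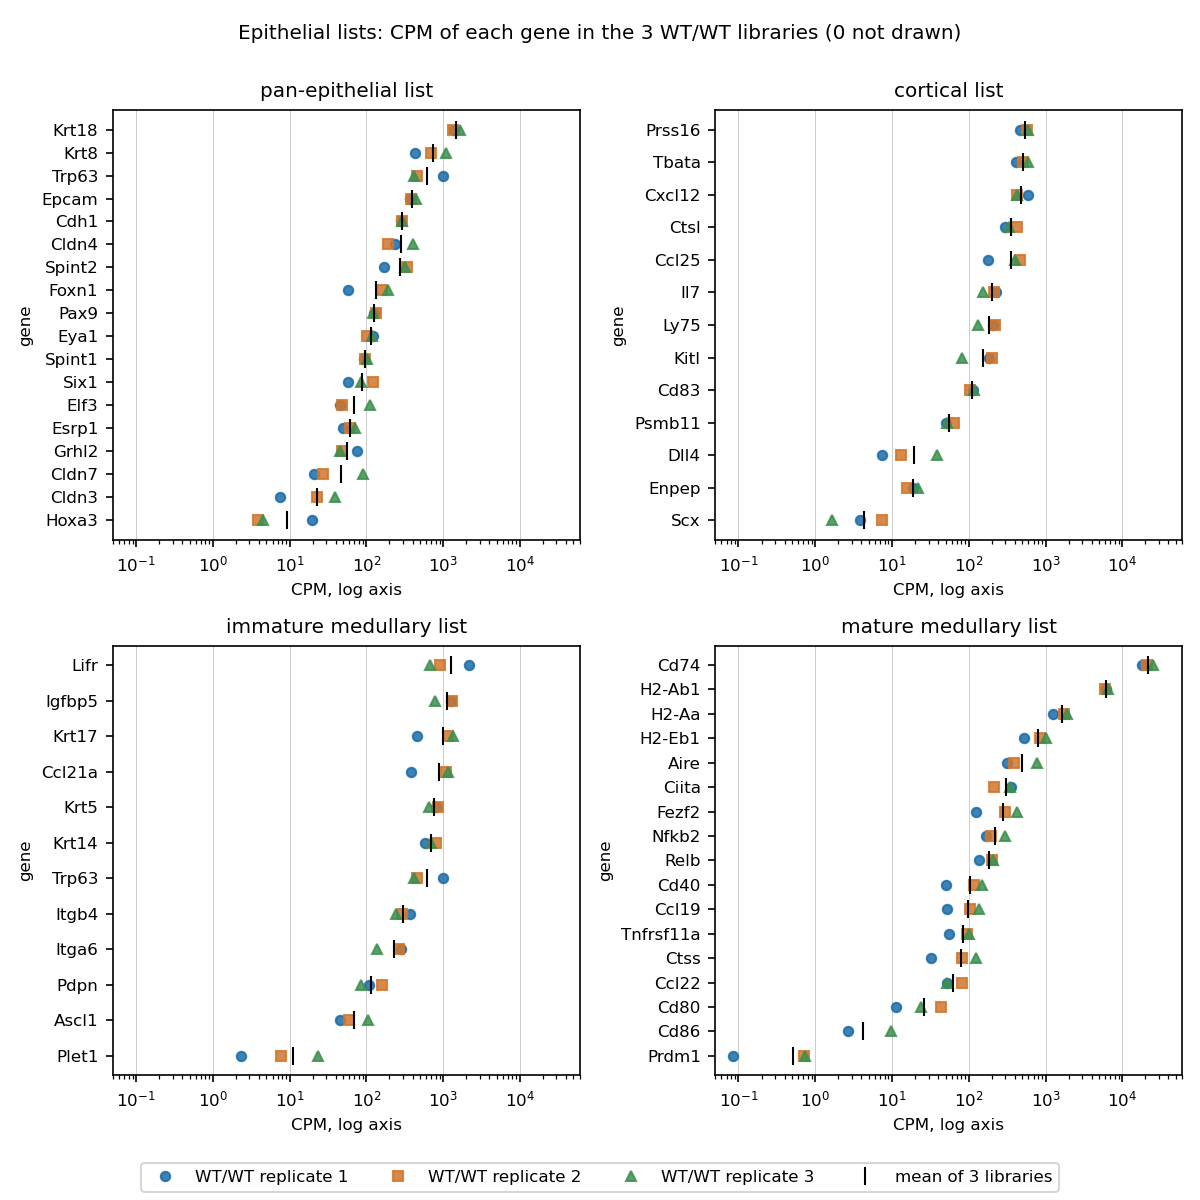
CPM of every gene in the pan-epithelial, cortical, immature medullary and mature medullary lists, on log axes; points are the 3 WT/WT libraries and the black tick is the mean. Most cortical genes lie close together across libraries, most mature medullary genes lie lowest in replicate 1, and Trp63 and Lifr lie highest in replicate 1.

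Genes of mimetic cells were counted in most libraries. Counts were found in all 3 libraries for 57 of 88 listed genes (64.8%), in 2 for 19, in 1 for 8 and in none for 4 (4.55%), so that 30.7% were in 1 or 2. Among all 21871 protein-coding genes 64.3% were counted in all 3 libraries, 19.7% in 1 or 2 and 16% in none. The share in all 3 libraries was thus close to that background, while fewer of the mimetic genes were in none and more in 1 or 2.

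The secretory airway list had the highest sum, 831, 672 and 1781 CPM, and 95.5% of it came from Bpifa1, an antimicrobial secretory protein of the upper airways, with 808, 641 and 1689 CPM. Its other members were far lower in counts: the airway protein Scgb1a1 was at 0, 5.46 and 3.21 CPM, and the mucin Muc5b was at 0 in every library. In the microfold list, named for the antigen-sampling cells of gut epithelium, the regulator Spib had 22.4, 85.3 and 115 CPM and the receptor Gp2 112, 79.4 and 98.7 CPM. Tnfrsf11b, a decoy receptor for the RANK ligand, held 57.4% of that list's sum of 431, 447 and 740.1 CPM.

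The tuft list, for chemosensory cells, summed to 204, 260.4 and 502 CPM and 10 of its 13 members were in all 3 libraries. The taste G protein subunit Gnat3 had 30.6, 29.6 and 59.5 CPM, Dclk1 56.9, 37.9 and 56.2 CPM and the channel Trpm5 9.72, 29.0 and 21.6 CPM. The tuft cytokine Il25 was at 0 in every library. The muscle list summed to 205, 297 and 459 CPM, also with 10 of 13 members in all 3 libraries. Myog, a regulator of muscle differentiation, had 46.0, 64.2 and 96.5 CPM and skeletal actin Acta1 33.0, 25.9 and 54.7 CPM, while Myod1, which acts earlier in muscle, was at 0 throughout. The acetylcholine receptor subunit Chrna1, an autoantigen in myasthenia gravis, had 9.62, 13.7 and 9.02 CPM and varied little.

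Keratinocyte genes summed to 201, 356 and 373 CPM with 11 of 15 members in all 3 libraries. Krt10 led with 41.7, 88.9 and 68.0 CPM, and involucrin, Ivl, was counted only in replicate 3, at 5.41 CPM. Neuroendocrine genes summed to 121, 160.0 and 213 CPM and 5 of 10 were in all 3 libraries. The regulator Insm1 had 22.7, 52.4 and 93.1 CPM and chromogranin A, Chga, 21.1, 61.9 and 66.5 CPM. Ciliated genes summed to 61.4, 60.01 and 80.01 CPM with 6 of 10 members in all 3 libraries. Foxj1, the regulator of motile cilia, had 15.4, 8.05 and 32.9 CPM. Ionocyte genes had the lowest sum of the 8 lists, 46.8, 25.4 and 63.6 CPM, and 4 of 9 were in all 3 libraries. Foxi1, their regulator, had 7.52, 3.05 and 9.41 CPM. The sums of all 8 mimetic lists were highest in replicate 3, except that over TMM-scaled library sizes the keratinocyte sum was highest in replicate 2 (209, 359 and 355 CPM).

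The tissue-restricted genes, 216 in 19 lists, were often counted in some libraries and not in others. Counts in all 3 libraries were found for 71 (32.9%), in 2 libraries for 49 (22.7%), in 1 for 57 (26.4%) and in none for 39 (18.1%). Among protein-coding genes, as given above, 64.3% were in all 3 libraries and 19.7% in 1 or 2, against 49.1% of the tissue-restricted genes. The share with no count at all, 18.1%, lay near the 16% of coding genes. The lists were chosen with earlier results of these data known and are not a sample of all genes. At like abundance the gap in percentage points was smaller. Among genes with a mean of 1 to 10 CPM, 51.1% of tissue-restricted and 66.2% of coding genes were in all 3 libraries. At 10 to 100 CPM the shares were 94.4% and 99.7%. For counted genes with a mean of up to 1 CPM, 62 of them tissue-restricted, they were 4.84% and 17.4%. As a ratio, that lowest range holds a wider gap than all genes together. All 216 together took 0.129% of counts, with sums of 738, 1307 and 1837 CPM. The mean log2(CPM + 1) over them was 0.95, 1.29 and 1.64 (1.30 ± 0.34).

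Presence in a single library mostly rested on many counts. Of the 57 tissue-restricted genes counted in a single library, 41 had at least 100 counts there, 1 had 3 or fewer, and the median was 204 counts. Over all 7236 genes of the table found in 1 library, the median was 28 counts and 2127 (29.4%) had at least 100. Only 2126 of the 7236 were protein-coding, so this set is not matched to the tissue-restricted genes. Reads carry no molecular identifiers, so many counts need not mean many molecules. Umod, uromodulin of the kidney tubule whose promoter is given above, had 4075 counts in replicate 3, or 22.4 CPM, and 0 in replicates 1 and 2. At that CPM the depths of replicates 1 and 2 correspond to 2361 and 2759 counts. Replicate 3 held 44 of the tissue-restricted genes found in a single library, replicate 1 held 7 and replicate 2 held 6. Over all 7236 genes of the table found in 1 library, replicates 1, 2 and 3 held 1224, 1154 and 4858, so replicate 3 held most of these too. Tissue-restricted genes missing from 1 library only numbered 30 for replicate 1, 15 for replicate 2 and 4 for replicate 3. Over all genes of the table these numbers were 2448, 2518 and 385, also fewest for replicate 3. Without replicate 3, 83 of the 216 genes had no count and 58 were in 1 of the remaining libraries; without replicate 1, 46 had no count and 69 were in 1 of the remaining libraries.

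**Figure D3:**
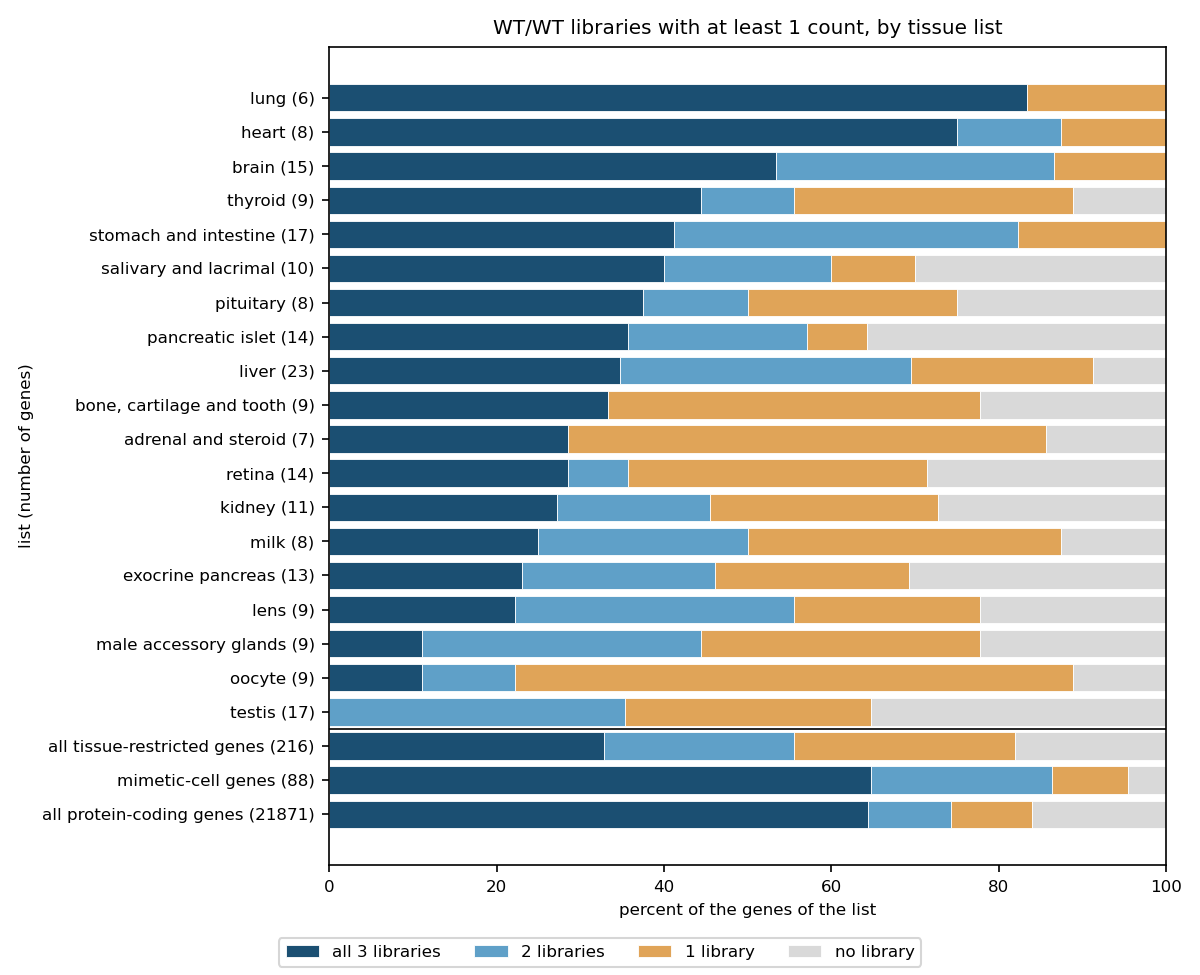
Percent of the genes of each tissue list with at least 1 count in all 3, 2, 1 or none of the WT/WT libraries; the 3 lowest bars give all tissue-restricted genes, mimetic-cell genes and all protein-coding genes. Of the tissue-restricted genes 32.9% were in all 3 libraries, against 64.3% of protein-coding genes.

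Counts of tissue-restricted genes were concentrated in few of them, and the 7 with the most counts together outweighed all the others in summed mean CPM, a share of counts with no account of gene length. They were Lpo, Reg3g, Syt1, Csn2, Nefm, Calca and Nefl. Lpo, the peroxidase of saliva, tears and milk, had 92.5, 198 and 316 CPM, and Reg3g, an antibacterial lectin of the gut, had 71.0, 132 and 232 CPM. Syt1, the calcium sensor of synaptic vesicles, had 69.8, 109 and 235 CPM. Each of these 3 was lowest in replicate 1 and highest in replicate 3. The neurofilament gene Nefm differed in that its levels were close, 48.0, 40.7 and 39.3 CPM.

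Lung and heart lists were the most complete. In the lung list 5 of 6 genes were in all 3 libraries, led by the surfactant protein Sftpd at 5.21, 3.18 and 23.2 CPM, and Sftpb was counted only in replicate 1, at 1.91 CPM. In the heart list 6 of 8 were in all 3, with cardiac troponin T, Tnnt2, at 14.7, 17.5 and 28.9 CPM, and the atrial hormone Nppa was counted only in replicate 3, at 2.44 CPM. In the brain list 8 of 15 were in all 3, among them Nefl at 16.3, 53.9 and 52.3 CPM. Every gene of these 3 lists, and of the stomach and intestine list, was counted in at least 1 library.

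The gut list had 7 of 17 genes in all 3 libraries. Atp4a of the gastric proton pump had 26.6, 19.4 and 32.7 CPM and pepsinogen C, Pgc, 6.03, 19.6 and 24.3 CPM. The liver list had 8 of 23 in all 3, including fibrinogen gamma, Fgg, at 4.22, 32.6 and 13.1 CPM. Apolipoprotein A1, Apoa1, was absent from replicate 1 and had 29.5 and 21.9 CPM in replicates 2 and 3. The lipoprotein gene Apob and Cyp7a1, an enzyme of bile acid synthesis, were at 0 in all 3. In the exocrine pancreas list 3 of 13 were in all 3, with the elastase Cela2a at 13.3, 4.46 and 2.28 CPM and its highest level in replicate 1, and Cpb1, Cpa1, Cela3b and Amy2a5 at 0. The salivary and lacrimal list had 4 of 10 in all 3, and Lpo held 95.4% of its sum; Smr2, Smr3a and Dcpp3 were at 0.

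The pancreatic islet list bears on the diabetes of the NOD strain, and it was counted in part. Of 14 genes 5 were in all 3 libraries, 3 in 2, 1 in 1 and 5 in none. Pancreatic polypeptide, Ppy, had 2.85, 13.3 and 12.7 CPM, somatostatin, Sst, 2.79, 3.85 and 11.5 CPM and amylin, Iapp, 0.890, 4.20 and 9.78 CPM. Each was lowest in replicate 1. The insulin gene Ins2 had 2.35, 0.713 and 2.09 CPM (1.72 ± 0.879), or 248, 88 and 381 counts. Ins1, the second insulin gene of mice, was at 0 in all 3 libraries, as were G6pc2, Slc30a8, Nkx6-1 and Slc2a2. Ptprn was at 0, 2.13 and 5.63 CPM, and Gad2 had only 1, 0 and 5 counts. Glucagon, Gcg, was at 0, 10.9 and 15.6 CPM, and the regulator Pdx1 was counted only in replicate 1, at 0.691 CPM.

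Other endocrine lists were in part present. In the pituitary list 3 of 8 genes were in all 3 libraries, led by the hormone precursor Pomc at 10.7, 24.6 and 15.6 CPM; growth hormone, Gh, was counted only in replicate 3, at 5.23 CPM, and Prl and Fshb were at 0. In the thyroid list 4 of 9 were in all 3, with calcitonin, Calca, at 14.8, 55.2 and 53.4 CPM and thyroglobulin, Tg, at 8.58, 4.12 and 4.57 CPM; the regulator Nkx2-1 was at 0. In the adrenal and steroid list 2 of 7 were in all 3, and Cyp11a1, the first enzyme of steroid synthesis, had 18.8, 6.33 and 38.3 CPM; Cyp11b2 was at 0.

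In the eye, kidney and skeletal lists few genes were shared by all libraries. In the retina list 4 of 14 were in all 3 libraries, with arrestin, Sag, at 2.11, 10.1 and 9.47 CPM, while the retinal genes Rbp3, Gnat1 and Crx were at 0. In the lens list 2 of 9 were in all 3, led by alpha crystallin, Cryaa, at 2.97, 18.2 and 24.1 CPM, with Crygd and Crygs at 0. In the kidney list 3 of 11 were in all 3, with the endocytic receptor Lrp2 at 11.1, 3.63 and 2.72 CPM, and Slc22a6, Aqp2 and Slc22a8 were at 0. In the bone, cartilage and tooth list 3 of 9 were in all 3, with the cartilage protein Matn1 at 2.40, 8.98 and 15.2 CPM, and Col10a1 and Ambn were at 0.

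Genes of testis, oocyte and male accessory glands were the least often in all 3 libraries. No gene of the 17 in the testis list was counted in all 3 libraries, and 6 were at 0; the germ cell helicase Ddx4 led with 0, 4.18 and 5.87 CPM. In the oocyte list 1 of 9 was in all 3, the egg coat protein Zp2 at 0.151, 11.9 and 4.00 CPM; Bmp15 was at 0 and 6 genes were in 1 library only. In the male accessory gland list 1 of 9 was in all 3, the seminal vesicle protein Svs5 at 0.663, 1.55 and 0.878 CPM, and Svs6 and Pbsn were at 0. In the milk list 2 of 8 were in all 3. The beta casein gene Csn2 made up 87.0% of its sum, with 22.4, 94.4 and 104 CPM, and whey acidic protein, Wap, was at 0.

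The spread of tissue-restricted genes between libraries was set beside that of coding genes of like abundance. Among genes with a mean of 10 to 100 CPM the median coefficient of variation was 58.8% for 18 tissue-restricted genes and 31.5% for 8322 protein-coding genes. At 100 CPM and above it was 56.2% for 3 and 21.1% for 2105. At 1 to 10 CPM the medians were close, 91.4% for 94 and 86.6% for 4675. The tissue-restricted genes had the larger median in each of these ranges, but the upper 2 ranges hold few of them and the difference was not tested.

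**Figure D4:**
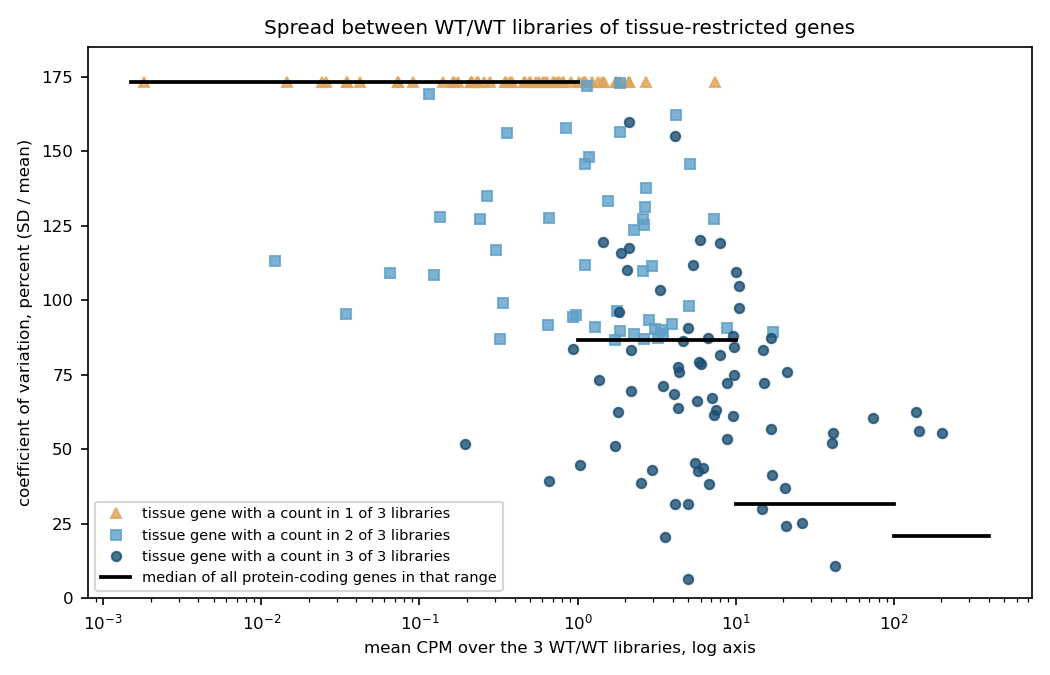
Coefficient of variation over the 3 WT/WT libraries against mean CPM (log axis) for the tissue-restricted genes with a count; symbols give the number of libraries with a count and black lines the median of all protein-coding genes in each range of mean CPM. Between 10 and 100 CPM the tissue-restricted genes have a median of 58.8% and protein-coding genes one of 31.5%; a gene found in 1 library always lies at 173%.

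Genes known from earlier work to depend on Aire or Fezf2 in thymic epithelium were listed apart. Of 11 genes listed as Aire-dependent, 7 were in all 3 libraries, 2 in 2, 1 in 1 and 1 in none. Csn2, which led the list, was at 73.6 ± 44.5 CPM, and Mup1, a urinary pheromone carrier, at 0.559, 2.75 and 2.10 CPM. Of 11 genes listed as Fezf2-dependent, 8 were in all 3, led by Reg3g and by Col17a1, a collagen of the basal epithelial anchor, at 133, 86.0 and 100.04 CPM. Among all protein-coding genes 64.3% were in all 3 libraries. With 11 genes in each list, neither count is read as different from that share. The sums were 36.2, 128 and 170.3 CPM and 338, 452 and 558 CPM, both lowest in replicate 1, in which Aire and Fezf2 were lowest too. Csn2 alone held 66.0% of the first sum. All 216 tissue-restricted genes together had the same order, 738, 1307 and 1837 CPM, so it is not particular to these 11-gene lists. With 3 libraries no relation between these levels was tested.

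Most members of the large sensory receptor families had no count. Among all protein-coding genes 64.3% were in all 3 libraries, 19.7% in 1 or 2 and 16% in none. Of 1406 olfactory receptor genes, 44 were in all 3 libraries, 238 in 1 or 2 and 1124 in none (79.9%), with sums of 102, 102 and 105 CPM; Olfr920 was highest at 15.3, 10.98 and 0.466 CPM. Of 326 vomeronasal receptor genes, 264 had no count. Of 38 taste receptor genes, 8 were in all 3 libraries and 8 in none. Of 58 keratin-associated protein genes of hair, none was in all 3 libraries and 46 were at 0. Of 50 keratin genes 28 (56%) were in all 3, below the share of coding genes. Defensins were counted in all 3 libraries for 5 of 64 genes, cytochrome P450 genes for 26 of 94, prolactin family genes for 0 of 25 and secretoglobins for 1 of 69. Major urinary protein genes were in all 3 for 17 of 22. Their sequences were not aligned to each other here, and how reads were split between similar members was not tested.

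Transcripts typical of cell types other than epithelium were counted in every library. The share to set beside the member counts of these lists is 64.3%, that of all protein-coding genes counted in all 3 libraries. Immunoglobulin and plasma cell genes had the largest sum of the 10 non-epithelial lists, 3333, 3426 and 6268 CPM, and 11 of 13 were in all 3 libraries. The kappa light chain Igkc had 1610.3, 734 and 1863 CPM. With numbered gene models left out, it ranked 9 by mean CPM per kilobase, at 2636 CPM. The heavy chain of the mucosal isotype, Igha, had 816, 1064 and 2242 CPM and the joining chain of its polymers, Jchain, 658, 621 and 1086 CPM. Iglc1, a lambda light chain, was at 2.17, 783 and 711 CPM, so that replicate 1 had far less of this chain than the others. The lambda variable gene Iglv1 was likewise at 27.1, 691 and 620.1 CPM. Immunoglobulin variable genes together summed to 876, 1303 and 2115 CPM, with 51 of 218 in all 3 libraries, 62 in 2 and 52 in 1. Over all genes of the table, 37% were in all 3 libraries and 22.2% in 1 or 2.

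Markers of B cells themselves were much lower in counts, and their list summed to 159.9, 149.98 and 243 CPM with 7 of 8 members in all 3 libraries. The surface marker Ms4a1 was at 2.17, 5.18 and 0.636 CPM, with Cd79a at 10.1, 6.98 and 8.44 CPM. Blnk and Fcer2a, at 61.6, 65.5 and 112 and 66.6, 34.2 and 63.5 CPM, made up most of the sum. Mzb1, a chaperone of antibody-secreting cells, had 11.3, 19.9 and 39.5 CPM. Per kilobase the mean of Cd79a was 5.85 CPM, that of Mzb1 19.4 CPM and that of Jchain 313 CPM.

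Thymocyte genes summed to 574, 357 and 423 CPM, highest in replicate 1, and 19 of 21 were in all 3 libraries. The kinase Lck had 102, 89.3 and 79.6 CPM, the regulator Tcf7 137, 51.9 and 88.9 CPM, and the T cell receptor constant genes Trbc2 and Trbc1 37.3, 30.4 and 34.0 and 27.9, 18.8 and 20.2 CPM. Cd3d and Cd3e, parts of the receptor complex, had 5.82, 11.8 and 8.83 and 17.4, 3.78 and 13.1 CPM. Rag1, a recombinase subunit, had 18.7, 11.5 and 9.93 CPM, and its partner Rag2 was at 0 in every library. CD45 itself, Ptprc, the target of the depletion, had 26.2, 13.6 and 22.7 CPM. Per kilobase its mean was 1.14 CPM, against 181.8 CPM for Epcam. The lengths used, all annotated exons together, were 18313 and 2195 bases, so the size of this gap depends on the annotation. The pan-leukocyte list summed to 215, 417 and 619.6 CPM, 74.7% of it from the lysosomal gene Laptm5, and all 5 members were in all 3 libraries.

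Stromal and blood lists differed in which library was high. Fibroblast genes, all 11 present in every library, summed to 1894, 2801 and 1938 CPM. The matrix proteoglycan Dcn had 1114, 1167 and 677 CPM, and the collagens Col3a1 and Col1a1 159, 499.6 and 361 and 64.3, 268 and 359.6 CPM. Dcn was lowest in replicate 3, whereas both collagens were lowest in replicate 1. Endothelial genes, all 10 present in every library, summed to 168, 396 and 196 CPM and 9 of 10 were highest in replicate 2, with Plvap at 25.2, 157 and 70.8 CPM and Pecam1 at 16.8, 42.2 and 18.8 CPM.

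Haemoglobin followed the same library, with Hba-a1 at 7.19, 98.1 and 33.0 CPM, and the erythroid list summed to 18.96, 233 and 83.7 CPM; Hba-a1 and Hba-a2 differ at a single aligned base, so their counts are uncertain as a pair. Without replicate 2 the mean erythroid sum was 51.3 CPM, against 112 CPM with it. Replicate 2 is thus the library with the highest endothelial, erythroid and fibroblast sums and the highest mitochondrial share.

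Myeloid genes summed to 96.7, 307 and 389.7 CPM, lowest in replicate 1, and 7 of 16 were in all 3 libraries. Lyz2, the lysozyme of macrophages and neutrophils, made up 65.5% of the sum at 64.1, 194 and 262 CPM. The macrophage markers Cd68 and Csf1r had 7.02, 22.4 and 11.2 and 5.93, 0.0324 and 3.74 CPM, and the dendritic genes Flt3 and Itgax had 3.43, 0 and 4.82 and 0, 4.11 and 1.63 CPM. Clec9a, Siglech and Fcgr1 were at 0 in all 3. In the adipocyte list 94.6% of 48.2, 126 and 83.1 CPM came from Fabp4 at 48.2, 120.1 and 74.8 CPM, which endothelial cells also express, while Adipoq was at 0, 0 and 3.49 CPM, Cidec at 0, 5.63 and 4.80 CPM, and Plin1 and Lep at 0.

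The parathyroid gland, which lies beside the thymus and shares its embryonic origin, gave a split picture. Parathyroid hormone, Pth, had 131, 141 and 248 CPM and was highest in replicate 3. Gcm2, the regulator that defines parathyroid cells, was at 0, 0 and 1.89 CPM, and the calcium receptor Casr at 0, 4.83 and 6.84 CPM. The cells from which the hormone's RNA came were not tested.

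**Figure D5:**
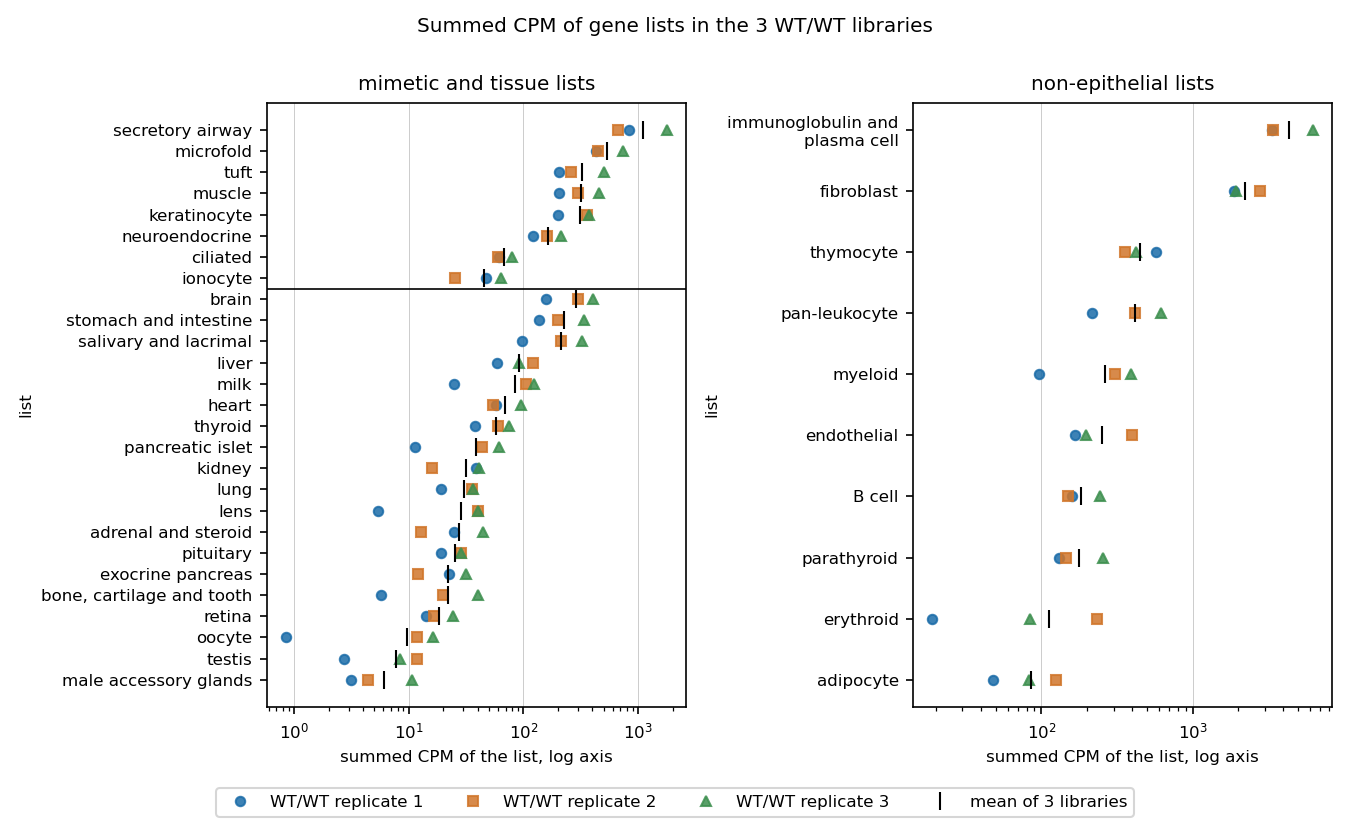
Summed CPM of the 8 mimetic lists (above the line), the 19 tissue lists (below it) and the 10 non-epithelial lists in the 3 WT/WT libraries, on log axes; points are libraries and the black tick is the mean. Over these column totals all mimetic sums lie highest in replicate 3, endothelial and erythroid sums lie highest in replicate 2, and the thymocyte sum lies highest in replicate 1.

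Housekeeping, cell cycle and sex-linked genes were counted in every library, as were 64.3% of all protein-coding genes. The 16 housekeeping genes, all present throughout, summed to 10599.8, 13323 and 13579.8 CPM, with Actb at 3996, 5096 and 4764 CPM and Gapdh at 149, 211 and 241 CPM. The 12 cell cycle genes, all present throughout, summed to 384, 388 and 555 CPM, with Mki67 at 28.3, 25.7 and 30.3 CPM and Top2a at 56.1, 6.12 and 60.8 CPM. Xist, the RNA of the inactive X chromosome in females, had 144, 117 and 153 CPM. The Y-linked gene Ddx3y had 54.9, 62.5 and 39.2 CPM, and all 4 Y-linked genes listed were counted in every library. Each library thus held transcripts of both female and male origin.

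Among 10997 genes with a mean of at least 10 CPM, replicate 1 lay more than 2-fold above both other libraries in 446 and below both in 803. The same counts were 224 and 639 for replicate 2 and 306 and 276 for replicate 3. Replicate 1, the library of batch A, had the most such genes in both directions, but every library had genes of its own. Of the genes found in a single library, the one with the highest CPM was in each library an immunoglobulin variable gene, Ighv5-9-1 with 2498 counts in replicate 1, Ighv5-16 with 3245 in replicate 2 and Igkv14-100 with 6050 in replicate 3. Lrrc18 in replicate 1, with 1261 counts, Ptx4 in replicate 2, with 1827, and Umod and Lrat in replicate 3, with 4075 and 3629, were the highest of other kinds.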

How the data were processed

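The authors deposited raw counts, whole numbers for each Ensembl gene in each library. The tools were FastQC, HISAT2 and StringTie and the build was mm39, per the submitters' processing notes; the step from StringTie to whole counts and the annotation release are not given in the sources used here. From these counts the 3 WT/WT columns were used and the columns of the other 8 libraries were not. CPM was taken over each column total with Python 3.11.15, NumPy 2.4.6 and pandas 2.3.3, and no test was made, since a single genotype has no group to be set against. Symbols, gene types and exon lengths came from GENCODE M21, an older release, and 52073 of 56691 genes had a symbol, holding at least 99.7% of the counts of each library. Thinning drew each library down to the smallest total without replacement, as the mean of 10 draws, and was checked on simulated data together with the TMM factors.

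The 47 gene lists and their members were chosen with earlier results of these data known; 514 of 518 listed genes were matched, and Cblif, Muc6, Spt1 and Ahsp were not. The text draws on the 4 marker genes, the 30 genes of highest mean CPM, the 3 highest and the first 2 members of each list, for tissue lists the highest members in all 3, 2 and 1 libraries and those with no count, the top member of each family, and the highest genes found in a single library. Near-identical copies, variable segments and Foxn1, Pax9, Hoxa3, Dll4, Ccl25, Krt5, Krt14, Cd40, Cd80, Cd86, Tnfrsf11a, Acta1, Chrna1, Gnat3, Il25, Ivl, Mup1, Hspa1a, Rag1, Rag2, Trbc1, Cd79a, Iglc1, Mzb1, Csf1r, Clec9a, Fcgr1, Flt3, Itgax, Siglech, Plin1, Lep, Ptprn and Gad2 were named after their values were seen. Copies were found by aligning GENCODE M21 transcripts with BLAST. The alternatives were other minimum counts and CPM, thinning, TMM sizes, totals without mitochondrially encoded genes, other pseudocounts and leaving out each library. Some listed genes are not reported here.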

Additional observations from a re-analysis of the deposited data

How the results depend on the processing

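Presence in all 3 libraries held within 1.5 times of the main count under every alternative run: for all genes 21002 became 14323 at 1 CPM or more and 20823 after thinning, and for tissue-restricted genes 71 became 51 and 71. Leaving out a library gave 21387 to 23520 genes and 75 to 101 tissue-restricted genes in both remaining libraries. Tissue-restricted genes in 1 or 2 libraries numbered 106, and 58 to 85 when a library was left out. Those in no library numbered 39, 74 at a minimum of 1 CPM, and 45 to 83 when a library was left out, with 83 without replicate 3; fewer libraries give fewer chances of a count. The 100 leading genes took 21.7% of counts on average, 19.3% without mitochondrially encoded genes and 20.8 to 22.4% when a library was left out. The mean tissue-gene score of 1.30 became -0.50 with a pseudocount of 0.1 and 1.70 over members with a mean of at least 0.1 CPM, both by construction, and 1.12 to 1.47 when a library was left out. Of the 30 leading genes, 21 remained when genes were ranked by CPM per kilobase. The means of Epcam, Aire, Psmb11 and Ccl21a and the sums of 22 lists moved by less than 1 SD over TMM sizes and over totals without mitochondrially encoded genes. When a library was left out, Aire ran from 352 to 580 CPM, Ccl21a from 746 to 1127 CPM and the erythroid sum from 51.3 to 158 CPM; with 3 libraries such a mean cannot move by 1 SD, so this says nothing of stability. No paired analysis was possible because these results come from no test. With 3 libraries, 1 of them in another batch, the SDs are themselves uncertain.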
